A study of Homo sapiens with 9 samples.

Results

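LIMCH1 and 9 genes of the actomyosin cytoskeleton (MYL9, MYH9, TPM1, TPM2, TPM4, ACTN1, ACTN4, CNN2 and CNN3) were followed in 2 human prostate cancer cell lines, as 10 of the 28216 genes in the deposited count table. The members were taken by symbol, and LIMCH1 was included because it lay far lower in PC3 cells than in LNCaP cells, so that the differences between the lines below describe how these genes stood and are not tests. PC3 cells, an established line from a bone metastasis, were labelled wild type and untreated and grew in F12K medium with 10% fetal bovine serum. LNCaP cells, an established androgen-responsive line from a lymph node metastasis, also labelled wild type, first spent 24 h in RPMI medium free of phenol red, whose 10% serum had been stripped of steroids with charcoal. They then received 10 nM androgen or 0.01% ethanol as vehicle for 48 h. The labels name the androgen as DHT and the study's text names R1881, so it is called androgen here. Each of the 3 groups had 3 libraries of poly(A) RNA, and the labels do not say whether replicates came from separate cultures, so that p-values measure the spread between these libraries, which may be technical. Medium, serum and line differ together between PC3 and LNCaP libraries and cannot be told apart.

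Actomyosin is the contractile material of the cell. Non-muscle myosin II, built from heavy chains, regulatory light chains and essential light chains, pulls on actin filaments when its regulatory light chain is phosphorylated. Tropomyosins wrap along the filament and set which proteins can bind it, alpha-actinins bundle filaments and anchor them at adhesions, and calponins bind actin and slow its sliding over myosin. LIMCH1 carries a calponin homology domain and a LIM domain and is known to bind and activate non-muscle myosin II. In epithelial cancer cells these proteins make stress fibres and the cortical belt under cell junctions.

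Serum response factor, which binds the CArG box, is a known regulator of many actin genes, and the promoters were therefore searched for this motif. RefSeq sequence on GRCh38.p14, from 250 bases before to 50 bases after each annotated start, was at hand for 9 of the 10 genes in 20 windows, since a gene may have several starts. MYL9 was not among them. A CArG box stood in 1 window each of CNN2, TPM4 and ACTN1, that is in 3 of 9 genes, against 1.6% of the 27305 genes with such windows (1.29% of 35116 windows). The pattern reads alike on both strands and was counted once. Those windows are shown with the CArG box in capitals, after the window of LIMCH1 at the start of its annotated gene, in which no CArG box was found. The counts are per gene and do not tell which start was used.
LIMCH1, chr4:41359357-41359656, plus strand: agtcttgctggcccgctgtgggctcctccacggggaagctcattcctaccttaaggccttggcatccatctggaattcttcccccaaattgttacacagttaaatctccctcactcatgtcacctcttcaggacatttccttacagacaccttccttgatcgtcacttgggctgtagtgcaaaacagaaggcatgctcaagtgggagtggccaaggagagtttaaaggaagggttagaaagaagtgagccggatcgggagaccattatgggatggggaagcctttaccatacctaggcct
CNN2, chr19:1026358-1026657, plus strand: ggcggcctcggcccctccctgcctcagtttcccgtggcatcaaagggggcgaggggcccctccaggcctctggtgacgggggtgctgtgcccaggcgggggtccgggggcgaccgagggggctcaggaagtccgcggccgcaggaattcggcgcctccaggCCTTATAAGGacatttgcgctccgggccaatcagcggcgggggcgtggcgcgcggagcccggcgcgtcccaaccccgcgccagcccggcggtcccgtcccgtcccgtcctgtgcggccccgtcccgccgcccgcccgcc
TPM4, chr19:16067288-16067587, plus strand: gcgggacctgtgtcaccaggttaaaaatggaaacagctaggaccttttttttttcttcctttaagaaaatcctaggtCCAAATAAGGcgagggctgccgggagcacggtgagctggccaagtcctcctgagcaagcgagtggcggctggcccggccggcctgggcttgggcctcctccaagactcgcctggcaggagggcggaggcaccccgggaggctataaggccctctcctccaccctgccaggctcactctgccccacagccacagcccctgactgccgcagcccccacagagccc
ACTN1, chr14:68977517-68977816, minus strand: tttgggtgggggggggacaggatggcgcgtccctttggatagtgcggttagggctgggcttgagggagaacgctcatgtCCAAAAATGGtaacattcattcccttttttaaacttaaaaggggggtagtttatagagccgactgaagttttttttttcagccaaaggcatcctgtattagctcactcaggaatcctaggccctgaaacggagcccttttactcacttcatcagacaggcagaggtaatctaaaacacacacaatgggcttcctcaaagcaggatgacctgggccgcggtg
The box lay 89 to 80 bases before the start in CNN2, 173 to 164 in TPM4 and 171 to 162 in ACTN1. The full palindromic steroid receptor element was searched too and was in no window of the 9 genes and in 1 of the 27305 genes. Among other letters searched on both strands, TATAAA was in windows of ACTN1 and LIMCH1, 2 of 9 genes against 14% of all. GGAATG was in windows of 4 of the 9 genes (ACTN1, CNN3, LIMCH1 and MYH9) against 16.7% of all. Counted by window, TATAAA was in 11.5% and GGAATG in 14% of the 35116 windows. A gene with more windows has more places for a motif, and LIMCH1 and ACTN1 had 4 windows each. The shares per gene are therefore not like for like, for the CArG box too.

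Counts on genes ranged from 17.4 M to 25.64 M per library, and 3 counts corresponded to 0.118 to 0.165 CPM (counts relative to library size, with TMM scaling factors over the 9 libraries). The genes KLK3 and KLK2, classic androgen targets of the luminal prostate, stood 7.40-fold and 17.9-fold higher with androgen than with vehicle, and KLK2 had no count in any PC3 library. PC3 replicate 3 stood apart from the other PC3 libraries, with chi-square values per degree of freedom of 31.6 and 54.5 against 11.6 between replicates 1 and 2. Transcripts of 127 genes particular to PC3 reached 0.469% of their PC3 level in androgen replicate 1 and 0.279% in vehicle replicate 1, but 0.0626% to 0.0885% in the other LNCaP libraries. In the reverse direction, transcripts of 37 genes particular to LNCaP reached 0.0292% to 0.0478% of their LNCaP level in PC3. These figures bear on the genes that were almost silent in a line, and their part in those values was not tested.

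LIMCH1 (chr4:41359607-41700044) was almost absent from PC3 cells, where its libraries read 4.49, 4.09 and 5.02 CPM. Androgen-treated LNCaP cells gave 1904, 1929 and 1962 CPM and vehicle-treated cells 649, 622 and 619 CPM. The 3 groups did not overlap, and within each the libraries lay close together. The log2 fold change of PC3 against androgen-treated LNCaP was -8.73 (SE 0.11, n = 3 and 3), the 177th lowest of 12541 genes tested, and against vehicle-treated LNCaP it was -7.09 (SE 0.09), the 266th lowest of 12686. PC3 cells thus held 0.212% to 0.260% of the level in androgen-treated LNCaP. In these bulk samples fewer cells with a transcript and less of it per cell cannot be told apart.

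**Figure D1:**
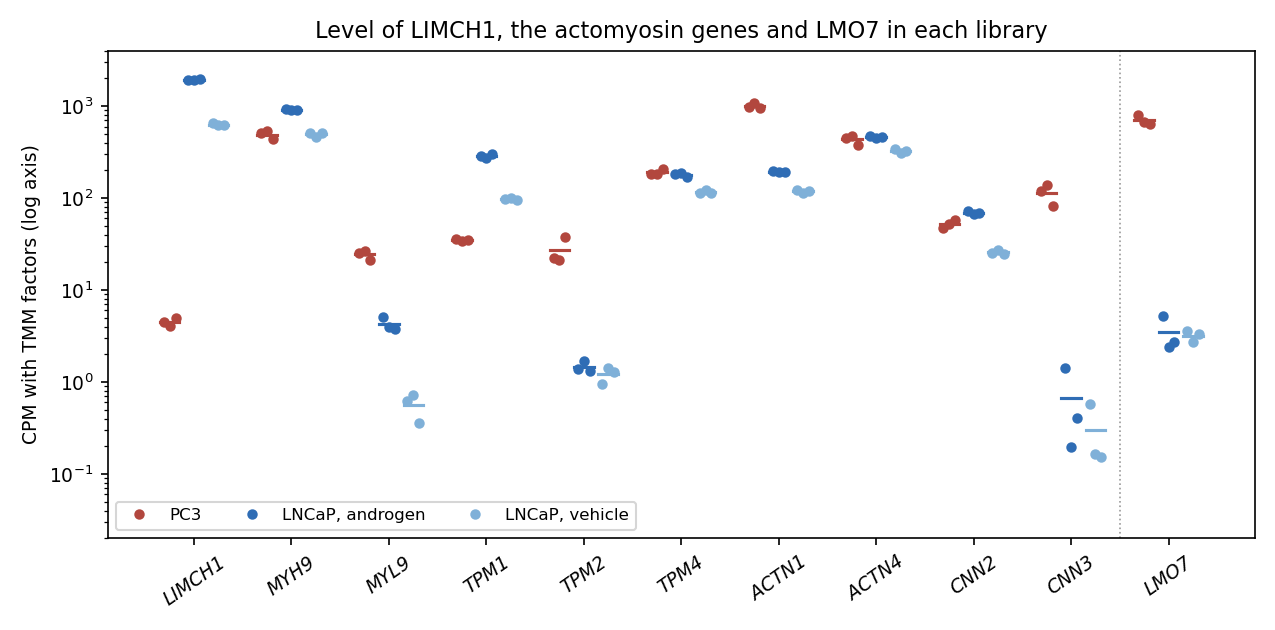
Level of each gene in the 9 libraries, as CPM with TMM factors on a log axis; dots are libraries, bars the mean of 3. LIMCH1 and TPM1 are lowest in PC3, whereas MYL9, TPM2, ACTN1, CNN3 and the LIMCH1 relative LMO7 are highest there.

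Androgen raised LIMCH1 in LNCaP cells 3.07-fold. The stated choice of members did not use this comparison, although it shares the androgen libraries with a comparison that was used. The members were also chosen with earlier results of these data known, so the choice may not be independent of it. The log2 fold change was 1.62 (SE 0.04; edgeR quasi-likelihood test, Benjamini-Hochberg adjusted p = 7.15e-13), with all 3 androgen libraries above all 3 vehicle libraries. It was the 353rd highest of 11697 genes tested. Of those genes, 14.0% were called with androgen (adjusted p under 0.05 and at least 2-fold), made up of 6.54% higher and 7.49% lower.

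LMO7, the closest relative of LIMCH1 and a protein of adherens junctions, went the opposite way between the lines. It read 802, 673 and 639 CPM in PC3, against 5.24, 2.42 and 2.72 CPM with androgen and 3.62, 2.69 and 3.30 CPM with vehicle. The log2 fold change of PC3 was 7.65 (SE 0.29) against androgen and 7.80 (SE 0.16) against vehicle. LMO7 in LNCaP stood at 0.343% to 0.743% of its PC3 level, highest in androgen replicate 1, the library with most PC3-particular transcripts. Androgen made no detectable difference to LMO7, with a log2 fold change of 0.13 (95% interval -0.60 to 0.86; edgeR adjusted p = 0.666). Per kilobase of the canonical transcript, LIMCH1 made up 0.600% ± 0.109 (SD, n = 3) of the summed LIMCH1 and LMO7 level in PC3, 99.8% with androgen and 99.5% with vehicle. Of all 74-nt stretches of LMO7 transcripts, 7.16% also occur elsewhere, and of LIMCH1 none did. LIMA1, which bundles actin filaments and slows their turnover, read 118 CPM in PC3, 73.7 CPM with androgen and 113 CPM with vehicle, and fell with androgen by 0.62 on the log2 scale (SE 0.05; edgeR adjusted p = 1.12e-07), less than 2-fold.

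The heavy chain MYH9 of non-muscle myosin IIA (chr22:36281280-36388010) did not separate PC3 from vehicle-treated LNCaP cells. PC3 libraries held 504, 531 and 438 CPM, androgen libraries 923, 899 and 916 CPM and vehicle libraries 507, 461 and 511 CPM. PC3 and vehicle values overlapped, with a log2 fold change of 0.02 (95% interval -0.25 to 0.29), whereas all androgen libraries lay above the others. Against androgen the log2 fold change of PC3 was -0.89 (SE 0.09). Androgen raised MYH9 1.85-fold (log2 0.89, SE 0.04; edgeR adjusted p = 1.00e-09), which is under the 2-fold mark.

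MYH10 and MYH14, the heavy chains of non-muscle myosins IIB and IIC, were both lower in PC3. MYH10 averaged 44.6 ± 14.5 CPM (SD, n = 3) in PC3, 174 ± 13.1 CPM with androgen and 236 ± 9.70 CPM with vehicle. MYH14 averaged 15.3 ± 2.18, 104 ± 2.77 and 87.2 ± 1.69 CPM in the same order. Androgen moved MYH10 by -0.43 (SE 0.05; edgeR adjusted p = 4.83e-06) and MYH14 by 0.25 (SE 0.04; edgeR adjusted p = 1.10e-04) on the log2 scale, opposite in sign and under 2-fold. Per length, MYH9 therefore made up 89.2% ± 1.04 of the 3 non-muscle heavy chains in PC3, 76.5% ± 0.802 with androgen and 60.5% ± 0.963 with vehicle. MYH11, the smooth muscle heavy chain, had at most 3 counts in any library.

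MYL9 (chr20:36541497-36551447), a regulatory light chain typical of smooth muscle and stress fibres, was highest in PC3 at 25.3, 26.7 and 21.4 CPM. LNCaP cells with androgen had 5.10, 3.997 and 3.78 CPM and with vehicle 0.629, 0.714 and 0.356 CPM, the latter from 12, 13 and 7 counts. The groups did not overlap. PC3 exceeded the androgen libraries by 2.51 (SE 0.16) and the vehicle libraries by 5.45 (SE 0.21) on the log2 scale. With androgen the fitted level was 7.62-fold that with vehicle (log2 2.93, SE 0.25), but the gene passed the filter on low counts only through the androgen libraries, where it is high, so this fit is no test of its direction. A fit of all genes without the filter gave 2.95 (SE 0.24; edgeR adjusted p = 9.27e-11).

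The other regulatory light chains, MYL12A and MYL12B, are ubiquitous. MYL12A averaged 329 ± 13.1 CPM in PC3, 349 ± 7.20 CPM with androgen and 117 ± 3.19 CPM with vehicle. MYL12B averaged 440 ± 21.4, 475 ± 15.9 and 224 ± 2.52 CPM. Androgen raised MYL12A 2.98-fold (edgeR adjusted p = 1.98e-12) and MYL12B 2.12-fold (edgeR adjusted p = 5.46e-11). MYL9 reached 1.21% ± 0.172 of the regulatory light chains per length in PC3, 0.198% with androgen and 0.0643% with vehicle. With the union of exons these shares were 2.36%, 0.391% and 0.120%. MYL6, the essential light chain, rose with androgen by 0.79 (SE 0.04; edgeR adjusted p = 2.86e-09) on the log2 scale, from 513 ± 21.5 to 882 ± 30.5 CPM, and stood at 458 ± 61.8 CPM in PC3.

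TPM1 (chr15:63042620-63071915) and TPM2 (chr9:35681992-35690056), the tropomyosins usually named as parts of stress fibres, stood on opposite sides between the lines. TPM1 had 35.9, 34.0 and 34.6 CPM in PC3, 284, 275 and 300 CPM with androgen and 98.4, 101 and 94.7 CPM with vehicle. The 3 groups were separate, and PC3 lay below androgen by 3.04 (log2 fold change -3.04, SE 0.06) and below vehicle by less (-1.47, SE 0.06). TPM1 rose 2.93-fold with androgen (log2 1.55, SE 0.04; edgeR adjusted p = 5.07e-12).

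TPM2 had 22.4, 21.3 and 38.02 CPM in PC3, against 1.39, 1.68 and 1.31 CPM with androgen and 0.944, 1.43 and 1.27 CPM with vehicle. The highest value came from PC3 replicate 3, the library that stood apart. The log2 fold change of PC3 was 4.22 (SE 0.28) against androgen and 4.505 (SE 0.30) against vehicle. With androgen TPM2 did not pass the filter on low counts and its LNCaP groups overlapped; a fit without the filter gave 0.29 (95% interval -0.42 to 0.99; edgeR adjusted p = 0.382).

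TPM4 (chr19:16067021-16103002), a short non-muscle tropomyosin, differed less. PC3 libraries read 182, 184 and 208 CPM, androgen libraries 182, 189 and 169 CPM and vehicle libraries 114, 121 and 114 CPM. PC3 overlapped the androgen group (log2 0.09, 95% interval -0.12 to 0.30) and lay above the vehicle group (0.74, SE 0.07). Androgen raised TPM4 1.55-fold (log2 0.63, SE 0.05; edgeR adjusted p = 7.58e-08). TPM3 stood at 403 ± 68.5, 369 ± 11.8 and 349 ± 11.4 CPM in PC3, with androgen and with vehicle, and its androgen difference was 0.08 (95% interval -0.03 to 0.20; edgeR adjusted p = 0.0744).

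Among the tropomyosins TPM1 made up, per canonical transcript length, 15.4% ± 0.826 in PC3, 65.1% ± 1.51 with androgen and 45.2% ± 0.666 with vehicle. TPM2 made up 12.2% ± 3.89, 0.340% ± 0.0521 and 0.573% ± 0.115. With the union of all annotated exons as length, the share of TPM1 was 4.47%, 33.1% and 16.9%. The order of the groups for TPM1 held while its shares moved by more than 1.5 times. By that length TPM3 led in LNCaP, with 41.4% with androgen and 58.3% with vehicle. In PC3 TPM4 led by the canonical length, with 41.6% against 30.8% for TPM3. TPM3 led there with the union of exons, with 50.2% against 29.2% for TPM4. The mean share of TPM1 in PC3 was above that of TPM2 by the canonical length only, as TPM2 made up 16.1% with the union of exons. Which tropomyosin leads thus depends on the length used, in PC3 as well as in LNCaP.

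**Figure D2:**
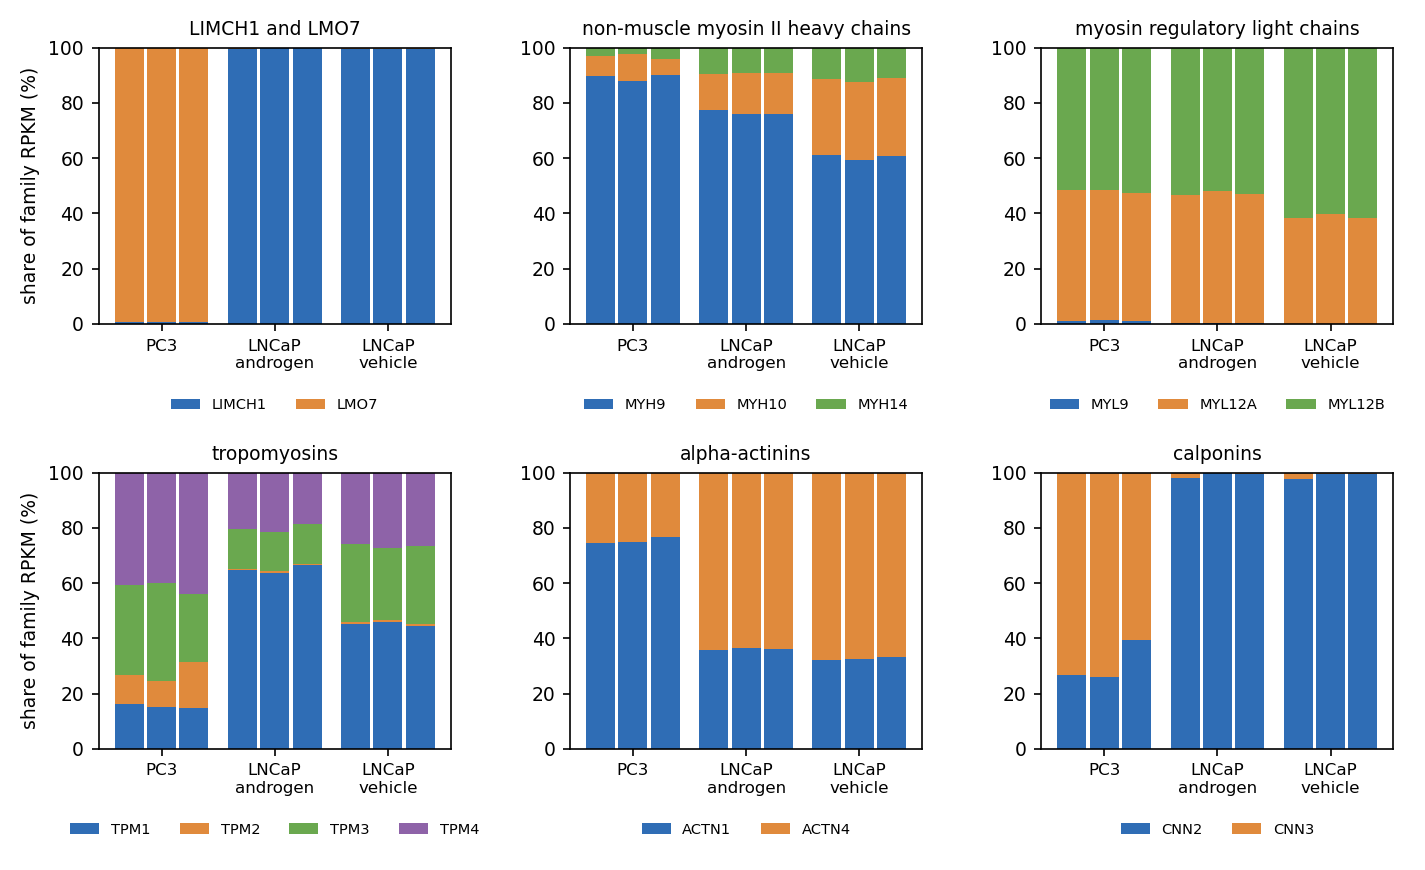
Share of each gene within its family in each library, from CPM per kilobase of the canonical transcript (vertical axis, percent); bars are the 3 libraries of each group. LMO7, CNN3 and ACTN1 take most of their families in PC3, and LIMCH1, CNN2 and ACTN4 in LNCaP.

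ACTN1 (chr14:68874128-68979440), the alpha-actinin of focal adhesions and stress fibres, was higher in PC3 than in either LNCaP group. Its libraries gave 973, 1070 and 944 CPM there, 197, 193 and 192 CPM with androgen and 122, 113 and 119 CPM with vehicle. The groups were separate, with PC3 higher by 2.36 (SE 0.08) and 3.10 (SE 0.09) on the log2 scale than the androgen and vehicle groups. Androgen raised ACTN1 1.65-fold (log2 0.72, SE 0.04; edgeR adjusted p = 4.62e-09).

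ACTN4 (chr19:38647649-38731589), the second non-muscle alpha-actinin, varied little. It read 449, 477 and 382 CPM in PC3, 472, 449 and 457 CPM with androgen and 343, 313 and 323 CPM with vehicle. PC3 and androgen values overlapped (log2 -0.07, 95% interval -0.35 to 0.21), and PC3 exceeded vehicle by 0.44 (SE 0.10). Androgen raised ACTN4 1.41-fold (log2 0.50, SE 0.04; edgeR adjusted p = 2.57e-07). ACTN1 thus took 75.4% ± 1.26 of the non-muscle alpha-actinin level per canonical length in PC3, 36.2% ± 0.382 with androgen and 32.7% ± 0.449 with vehicle. With the union of exons these shares were 49.5%, 15.3% and 13.4%, so which of the pair leads in PC3 depends on the length used. The muscle forms ACTN2 and ACTN3 had at most 8 counts in any library.

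CNN3 (chr1:94896949-94927223), the acidic calponin of non-muscle cells, was largely a PC3 transcript. PC3 libraries held 120, 139 and 81.8 CPM, lowest in replicate 3. Androgen libraries held 1.43, 0.197 and 0.403 CPM, from 32, 4 and 8 counts, and vehicle libraries 0.577, 0.165 and 0.152 CPM, from 11, 3 and 3 counts. The log2 fold change of PC3 was 7.33 (SE 0.45) against androgen and 8.57 (SE 0.39) against vehicle. Replicate 1 of each LNCaP group was the highest for CNN3, and these were also the libraries with most PC3-particular transcripts. Without androgen replicate 1 the fold change was 8.56, and without vehicle replicate 1 it was 9.47. CNN3 was too low to be tested with androgen, and without the filter the estimate was 1.23 (95% interval -0.43 to 2.88; edgeR adjusted p = 0.0943).

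CNN2 (chr19:1026586-1039068), the other non-muscle calponin, changed sides with the reference. PC3 libraries read 47.0, 52.9 and 57.1 CPM, between the androgen libraries at 72.3, 67.7 and 68.1 CPM and the vehicle libraries at 25.3, 27.2 and 24.7 CPM. No groups overlapped. The log2 fold change of PC3 was -0.41 (SE 0.09) against androgen and 1.05 (SE 0.09) against vehicle, and 0.97 against vehicle without PC3 replicate 3, under the 2-fold mark. Androgen raised CNN2 2.70-fold (log2 1.44, SE 0.06; edgeR adjusted p = 1.14e-10). CNN2 made up 30.7% ± 7.47 of the 2 calponins per length in PC3, 99.0% with androgen and 98.8% with vehicle. CNN1, the smooth muscle calponin, had 3, 14 and 8 counts in PC3 and none in LNCaP.

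Of the 10 genes, 6 passed the call against androgen-treated LNCaP, 4 of them higher in PC3 (MYL9, TPM2, ACTN1, CNN3) and 2 lower (LIMCH1, TPM1). All genes tested gave 46.0% called. Against vehicle 7 passed, with CNN2 added to those higher, beside 43.2% of all genes. As the members were chosen from these differences, nothing is read from these counts. With androgen, LIMCH1, TPM1 and CNN2 were called, all higher, and MYL9 met the same rule after entering the test through its androgen libraries only, beside 14.0% of all genes called. MYH9, TPM4, ACTN1 and ACTN4 were higher by the adjusted p alone, and TPM2 and CNN3 were not tested, so these counts do not speak for the 10 genes. By the adjusted p alone 74.9% of all genes passed, 37.1% higher and 37.8% lower. For the 7 members above 3 CPM in every LNCaP library, the 3 androgen libraries lay above the 3 vehicle libraries, as they did for 38.5% of all genes tested.

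**Figure D3:**
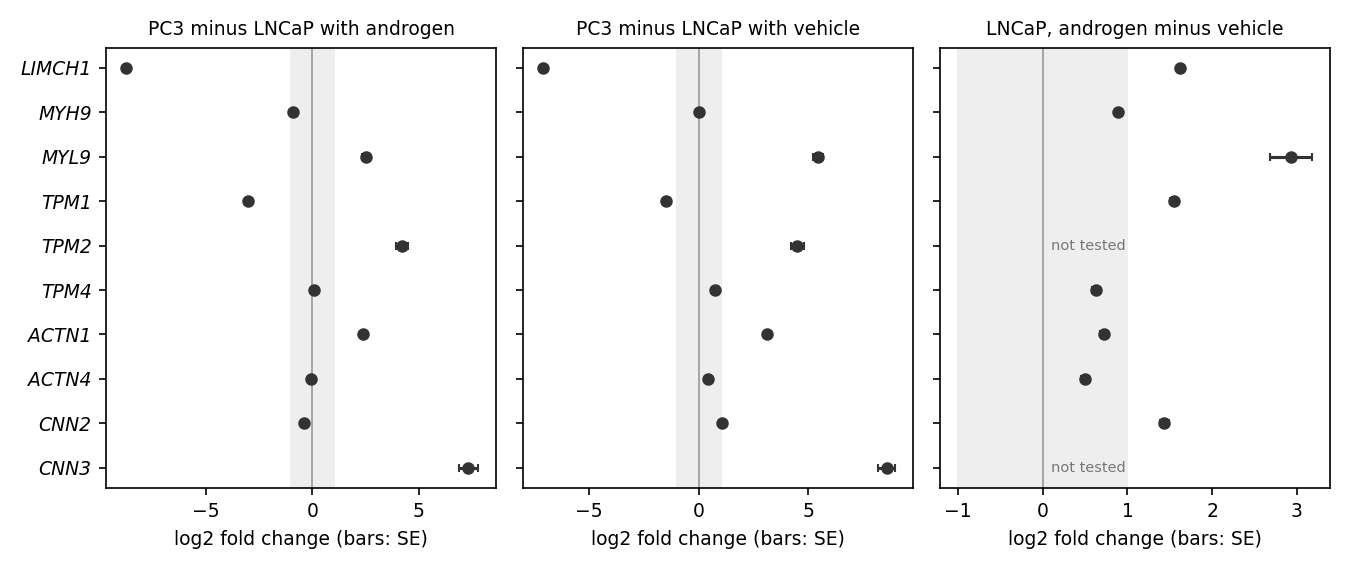
Log2 fold change of each gene with its SE in the 3 comparisons (3 libraries per group; the horizontal scales differ, and the grey band marks less than 2-fold). LIMCH1 and TPM1 lie left of 0 in both comparisons of PC3, and in LNCaP the 8 tested genes lie right of 0 with androgen, MYL9 having entered that test through its androgen libraries only.

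Levels per length put LIMCH1 at the 2 ends of the order. It was the lowest of the 10 in PC3, with 0.589 ± 0.0607 RPKM (CPM per kilobase of canonical transcript, SD, n = 3), below MYL9 at 8.78 ± 0.990 RPKM without overlap. With androgen it was the highest at 251 ± 3.82 RPKM, above TPM1 at 235 ± 10.5 RPKM, and with vehicle its 81.8 ± 2.14 RPKM overlapped TPM1 at 80.5 ± 2.46 RPKM. LIMCH1 was lowest in PC3 and highest in both LNCaP groups with the union of exons as well. The closeness of TPM1 held for the canonical length only. With the union of exons LIMCH1 stood at 178 RPKM with androgen and 58.0 RPKM with vehicle, and TPM1 at 19.5 and 6.66 RPKM. ACTN4 came next to LIMCH1 by that length, at 75.0 and 53.3 RPKM. In PC3 ACTN1 led at 267 ± 17.8 RPKM, followed by ACTN4 (87.4 ± 9.82 RPKM) and TPM4 (77.4 ± 5.82 RPKM), which overlapped. MYH9 at 65.9 ± 6.44 and CNN3 at 57.1 ± 14.6 RPKM overlapped too. With the union of exons, ACTN4 and ACTN1 overlapped at the top in PC3, with means of 71.2 and 69.5 RPKM.

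The genes whose pattern across the 9 libraries was most like that of LIMCH1, by the root mean square difference of centred log2(CPM + 0.5) among 12843 genes, were KCNN2, LRIG1, GLYATL1, ZBTB16 and MAOA, at 0.156 to 0.362. KCNN2 encodes a calcium-activated potassium channel, LRIG1 a restraint on receptor tyrosine kinases, GLYATL1 an acyltransferase, ZBTB16 a zinc finger transcription factor and MAOA monoamine oxidase A. MAOA averaged 2.96 CPM in PC3, 1458 CPM with androgen and 728 CPM with vehicle, and LRIG1 0.579, 358 and 99.6 CPM. KCNN2, GLYATL1 and ZBTB16 averaged 0.0131, 0 and 0.0145 CPM in PC3, where LIMCH1 averaged 4.53 CPM. Their PC3 values in this measure come almost wholly from the added 0.5 CPM, so their likeness to LIMCH1 rests on that choice. The points share libraries, so the measure only describes likeness. With a pseudocount of 2 CPM, 1 of these 5 (MAOA) was again among the 5 most alike.

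Beyond the members, a list of 85 further actomyosin genes was followed. Against androgen-treated LNCaP, 74 were tested and 32 were higher and 13 lower in PC3, beside 24.0% higher and 22.1% lower among all genes tested; the median log2 fold change was 0.58 in the list and 0.04 over all genes. Against vehicle, 72 were tested, with 28 higher and 9 lower beside 22.2% and 21.0%, and medians of 0.72 and 0.03. Some of those higher, such as FLNC and PDLIM4, passed the filter only through their PC3 libraries, where they are high. The counts and medians for PC3 are therefore a description and no test. With androgen 66 were tested, 6 higher and 6 lower, beside 6.54% and 7.49%, with medians of 0.06 and -0.01. The smooth muscle actin ACTA2 is among these 6 higher and passed the filter only through its androgen libraries.

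Alpha-actinins and crosslinkers, a list that includes the members ACTN1 and ACTN4, had the most calls higher in PC3. Against androgen 9 of 11 tested were higher and none lower, beside 24.0% and 22.1% of all genes tested. ACTN1 is among these 9 and was chosen with its difference between the lines known. FLNC, a filamin that links actin to adhesions, averaged 201 CPM in PC3, 0.809 CPM with androgen and 0.351 CPM with vehicle. It passed the filter only through its PC3 libraries, as did others of these 9, so that count is no test of direction. FLNA, the common filamin, averaged 1510, 483 and 304 CPM. FSCN1, the fascin that bundles filaments in protrusions, averaged 257, 4.22 and 9.98 CPM and fell with androgen by 1.23 on the log2 scale (SE 0.18; edgeR adjusted p = 3.05e-05). ANLN, which links actin, myosin and septins in dividing cells, fell with androgen as well, from 126 to 42.4 CPM (edgeR adjusted p = 7.62e-09).

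Of the list of 15 LIM proteins and relatives, LIMCH1 included, 13 were tested against androgen, and 7 were higher in PC3 and 3 lower (LIMCH1, CSRP1 and PDLIM5), beside 24.0% and 22.1% of all genes; LIMCH1 was chosen for its low level in PC3. PDLIM4 averaged 13.5 CPM in PC3 and CSRP2 10.2 CPM, while PDLIM4 had at most 3 counts in any LNCaP library and CSRP2 at most 1 with vehicle and 15 with androgen. Both passed the filter only through their PC3 libraries, so their calls are no test of direction. PDLIM5, an adaptor of alpha-actinin and protein kinases, rose 3.04-fold with androgen (edgeR adjusted p = 9.26e-11), from 79.5 to 241 CPM, beside 101 CPM in PC3. ABLIM1 averaged 51.1 CPM with androgen and 115 CPM with vehicle and was called lower.

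Of 12 genes for kinases and the phosphatase of the myosin light chain, 2 were called higher and 2 lower with androgen, beside 6.54% and 7.49% of all genes tested. MYLK, the myosin light chain kinase, averaged 9.33 CPM in PC3, 6.44 CPM with androgen and 20.9 CPM with vehicle, and fell with androgen by 1.69 on the log2 scale (SE 0.10; edgeR adjusted p = 7.02e-09). CIT, the citron kinase of cytokinesis, fell by 1.91 (SE 0.08; edgeR adjusted p = 2.02e-10). DAPK3, another kinase of the light chain, rose 2.56-fold (edgeR adjusted p = 1.36e-10) and PPP1CB, a catalytic subunit of myosin phosphatase, 2.76-fold (edgeR adjusted p = 7.00e-12). PPP1CB averaged 239 CPM in PC3, 776 CPM with androgen and 282 CPM with vehicle. PPP1R12B, a regulatory subunit of the phosphatase, averaged 8.33, 25.4 and 24.4 CPM.

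ACTA2 read 27.6, 21.4 and 22.7 CPM with androgen against 1.43 to 1.89 CPM with vehicle, a fitted difference of 13.8-fold, and averaged 0.870 CPM in PC3. ACTG2, the other smooth muscle actin, did not pass the filter, with 83, 61 and 56 counts with androgen and at most 2 counts in any other library. The 7 smooth muscle markers, ACTA2 among them, summed to 57.1 to 63.2 CPM with androgen, 48.1 to 53.7 CPM with vehicle and 120 to 138 CPM in PC3, with CNN1 and DES at 0 in LNCaP and MYH11 at 0 as well with vehicle. SMTN, the smoothelin, made up most of these sums in PC3 (118 to 134 CPM) and with vehicle (43.7 to 48.6 CPM) and stood at 27.4 to 33.8 CPM with androgen, so the sums hide that SMTN was lower with androgen while ACTA2 was higher. Fibroblast markers summed to 12.6 to 15.5, 22.9 to 26.5 and 37.6 to 48.3 CPM in that order. Epithelial markers (EPCAM, KRT8, KRT18) summed to 2750 to 3110, 725 to 731 and 439 to 447 CPM. Whether such differences have a part in the ACTA2 value was not tested. CALD1, the caldesmon that blocks myosin on actin, averaged 128 CPM in PC3, 448 CPM with androgen and 773 CPM with vehicle, and TAGLN3 6.26 CPM in PC3 with at most 2 counts in LNCaP. TMOD1, which caps filament ends, averaged 0.287, 4.95 and 6.12 CPM, although 80.7% of the reads at its exons lay on the opposite strand. DIAPH3, a formin that lengthens filaments, fell with androgen by 2.08 on the log2 scale (SE 0.08; edgeR adjusted p = 4.87e-11).

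SRF, the serum response factor, averaged 77.2 CPM in PC3, 45.1 CPM with androgen and 41.7 CPM with vehicle, and was not called in any comparison. SRF lay higher in PC3 without overlap but under 2-fold, by 0.78 (SE 0.08) against androgen and 0.91 (SE 0.08) against vehicle on the log2 scale. Its actin-sensing cofactor MRTFA averaged 31.8, 23.5 and 19.95 CPM and was not called either, with PC3 higher without overlap by 0.44 (SE 0.07) and 0.70 (SE 0.09). The cofactor MRTFB averaged 27.0, 52.0 and 81.2 CPM and was called lower in PC3 against vehicle.

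**Figure D4:**
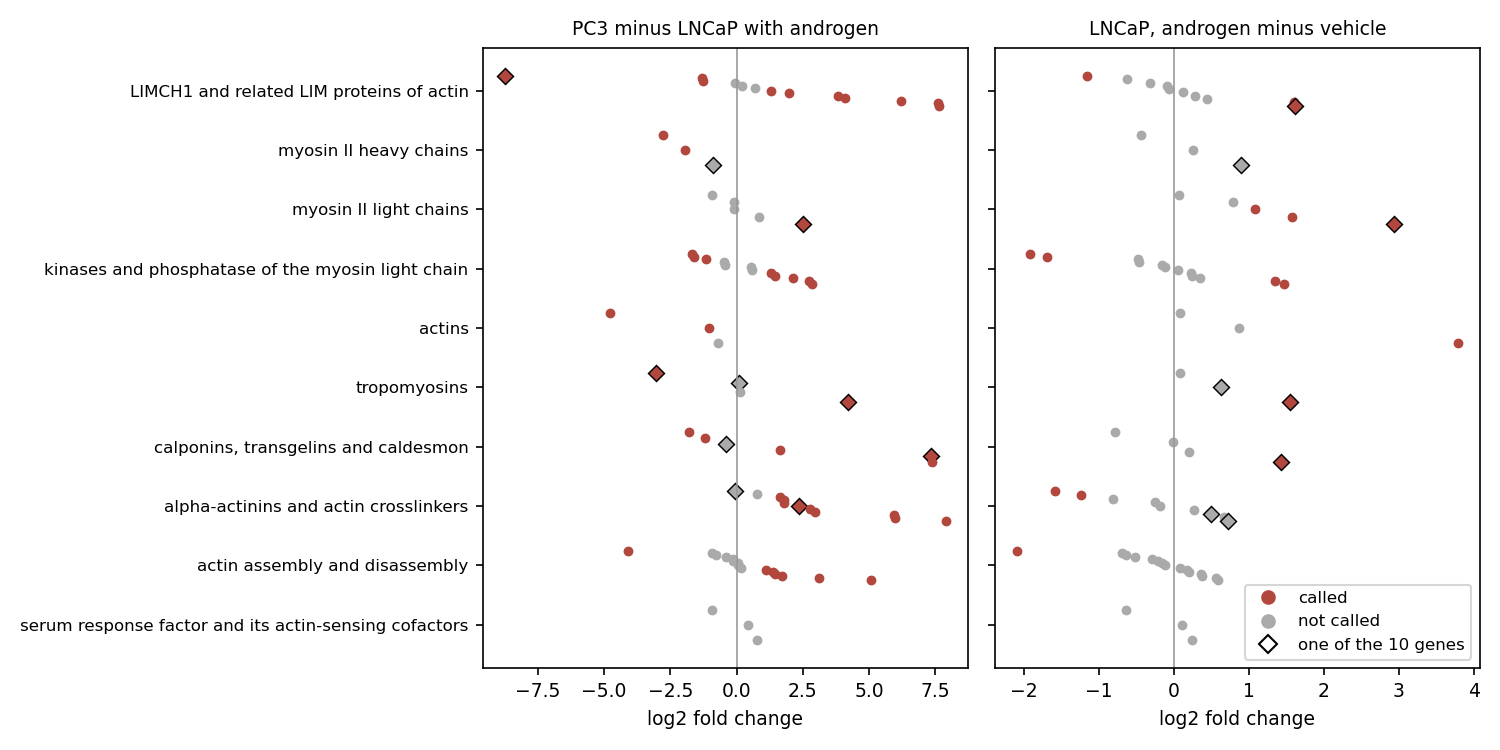
Log2 fold change of the tested genes of 10 actomyosin lists (rows) for PC3 against androgen-treated LNCaP (left) and for androgen against vehicle (right); each mark is a gene, red where called, with diamonds for the 10 genes. The crosslinkers lie mostly right of 0 in the left panel, some of them tested through their PC3 libraries only. ACTA2, tested through its androgen libraries only, is the rightmost mark in the right panel.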

How the data were processed

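RNA-seq of 9 libraries was analysed. According to the study's supplement, the authors trimmed 74-nt single-end reads with cutadapt, aligned them to hg38 with STAR, removed PCR duplicates by UMI with UMI-tools and mapped the rest again. The submitters' processing notes name cutadapt 4.1, STAR 2.7.7a and UMI-tools 1.1.2, and the supplement names other versions of cutadapt and STAR, so the versions used are not settled. The gene annotation is not given in the sources used here. The authors deposited counts, whole unnormalized reads per gene and library, which equal the same-strand column of STAR. Between 20.3% and 25.4% of reads were not assigned to a single gene, being unmapped, mapped to several places, off genes or ambiguous between genes.

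Genes over 3 CPM in at least 3 libraries of a fit were tested with edgeR 4.0.16 (R 4.3.3), by TMM factors and the quasi-likelihood F test on the 6 libraries of each comparison, with Benjamini-Hochberg adjustment over all genes tested. A call required adjusted p under 0.05 and at least 2-fold. The SE is the size of the log2 fold change over the root of its F statistic. The 95% intervals use this SE and 4 residual degrees of freedom. The p-values use the degrees of freedom that edgeR gains by sharing information between genes, so an interval and its p-value need not match. The study used a likelihood ratio test with a batch term whose batches it does not name, so no batch was fitted. The members and lists were chosen with earlier results of these data known. The text names the members, 12 relatives of their families, in each comparison up to 5 further listed genes with the largest rise and fall among those called, and the 5 genes most like LIMCH1; FLNA, SRF, MRTFA and ABLIM1 were added after their values were seen. Some genes this covers are not reported here, though counts over the lists include them. KLK2 and KLK3 check the treatment. Fold limits and floors of 3 counts cover counting error only.

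PC3-particular transcripts were genes over 50 CPM in PC3 with a median of at most 0.5 CPM in LNCaP, and the reverse. Locations and lengths are from GENCODE 44 on GRCh38, and promoters from RefSeq on GRCh38.p14. Of all 74-nt stretches of a member's transcripts, 0% to 2.87% occur elsewhere. Deviations from group means over 10015 genes correlated by 0.152, 0.234 and 0.211 between same-numbered LNCaP libraries, and by -0.269 to 0.103 between differently numbered ones. Differently numbered libraries of PC3 and androgen-treated LNCaP reached 0.224. The counts alone therefore do not settle whether the numbers pair the LNCaP libraries, and the replicate block was fitted only as an alternative. On simulated data, 200 of 200 changed genes were recovered with 0 false calls in each comparison. The changed genes were well above the filter on low counts, all changes were past the 2-fold mark, and every gene had the same spread. This checks the code only and does not speak for genes near the floor, smaller changes or the wider spread between PC3 libraries. Alternatives were DESeq2 1.42.0 size factors and Wald test, edgeR's likelihood ratio test, a replicate block, no filter, unstranded counts, all 9 libraries in one fit, the adjusted p alone and each library left out in turn; the union of exons as length was added after seeing the data.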

Additional observations from a re-analysis of the deposited data

How the results depend on the processing

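The fold changes of the 10 genes kept their direction in 13 alternatives where they were called, and the 8 genes tested with androgen (MYL9 through its androgen libraries only, except without the filter) stayed higher and past the adjusted p of edgeR or DESeq2 in each of them. Near 0 the sign of ACTN4 against androgen (-0.15 to 0.01) and of MYH9 against vehicle (-0.06 to 0.08) changed with the library left out. The 2-fold call of CNN2 for PC3 against vehicle was lost without PC3 replicate 3 (0.97). Without the filter on low counts 9147, 8713 and 2941 genes were called (PC3 against androgen, PC3 against vehicle, androgen against vehicle), in place of 5773, 5485 and 1641, as more genes were tested. By the adjusted p alone 10530, 10577 and 8763 were called, with 63 of the further listed genes for PC3 against vehicle in place of 37, 53 for androgen in place of 12, and 8 members for androgen in place of 4. Leaving out each library gave 5717 to 5830, 5415 to 5616 and 1601 to 1686 genes, and 6, 6 to 7 and 4 members. With the replicate block 5756, 5495 and 1638 genes were called, with 6, 7 and 4 members and 45, 37 and 12 further listed genes, so the block changed no count by over 1.5 times. Same-numbered libraries of PC3 and LNCaP correlated by -0.20 to 0.08, so the counts gave no sign that the numbers pair the lines. Another pseudocount kept 1 of the 5 genes most like LIMCH1. CNN3 and TPM2 in LNCaP, and MYL9 with vehicle, are limited by depth, at 3 to 34 counts per library.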
